A study of Rattus norvegicus and Bos taurus with 6 samples.

Results

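Laminins, nidogens and integrins were followed through 6 single-nucleus RNA-seq libraries of rat and cow adipose tissue, in which unique molecular identifiers (UMIs) count the RNA molecules of each gene in each nucleus. Members were all genes whose symbol, in any case, was Lama, Lamb or Lamc with a number, was Nid1 or Nid2, or began with Itga or Itgb, without the Itgb1bp, Itgb3bp and Itgbl genes. This gave 39 of 38697 genes in the annotation of the rat Parse libraries, 40 of 25629 in that of the 10x Genomics library and 37 of 36075 in that of the cow library. The additional name in the 10x Genomics library was another identifier called Itgae, which held 0 UMIs, so 39 genes were measured: 11 laminin chains, 2 nidogens and 26 integrin subunits. Cow ITGAX and ITGAE were not analysed here. The identifier that the 10x Genomics annotation calls Itgam was called Itgad in the rat Parse annotation and is given here as Itgam, and because Itgam, Itgax and Itgad are neighbouring, related genes on rat chromosome 1, their split is uncertain. Of the members, 38 had at least 100 UMIs in some library, and 37 of them are given library by library. Itgax had at most 34 UMIs.

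Each condition was 1 library, so no test between conditions could be made and every difference is a difference between libraries. All rat tissue was snap frozen and came from male Dahl SS rats (SS/HsdMcwiCrl) from Charles River, with no disease, kept at 22 °C and 50% humidity. Their age is not given in the sources used here. Mesenteric perivascular adipose tissue (mesPVAT), the white fat along the vessels of the gut, was measured on 10x Genomics (batch 1) and, from nuclei isolated by another protocol, on Parse (batch 2). The other Parse libraries of batch 2 were retroperitoneal (RP) fat, a white depot away from large vessels, thoracic aortic PVAT (taPVAT), a brown perivascular depot, subscapular brown adipose tissue (BAT), and subcutaneous white adipose tissue (WAT) from the flank of a lactating female Holstein cow, sampled early in lactation. The taPVAT nuclei were spun more slowly than those of the white depots. Whether a library held tissue of more than 1 animal was not given in the sources used here.

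Laminins are heterotrimers of an alpha, a beta and a gamma chain that form a sheet in the basement membrane, the thin matrix that wraps every adipocyte, vessel and muscle fibre. Nidogens bridge that sheet to the collagen IV network. Integrins are cell surface receptors of an alpha and a beta subunit that grip laminins, collagens, fibronectin or, on leukocytes, proteins of other cells, and link them to the cytoskeleton.

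Total depth ranged from 845316 UMIs (RP fat) to 16827260 UMIs (cow), and the median nucleus held 161 UMIs on 10x Genomics. On Parse it held 346 UMIs for the label mesPVAT, 213 for RP fat, 1246 for taPVAT, 1706 for BAT and 3530 for cow. No barcode was shared between libraries, and no doublets were removed. Nuclei with UMIs of exactly 1 of Plin1, Pdgfra, Ptprb, Ptprc and Notch3 formed the adipocyte, progenitor, endothelial, immune and mural classes. None of these genes was found in 84.8% of nuclei on 10x Genomics, 60.7% in mesPVAT on Parse and 80.0% in RP fat. For taPVAT, BAT and cow WAT this share was 17.7%, 12.2% and 23.4%. Nuclei with several of these genes were left out too, and in cow WAT they held 10892864 of 16827260 UMIs. The class levels thus describe only a part of each library. Of the markers with at least 3 UMIs, 35 of 37 were highest in their own class in taPVAT, 34 of 36 in BAT, 32 of 34 in cow and 32 of 34 on 10x Genomics. The library labelled mesPVAT had 30 of 35 and that labelled RP fat 24 of 35, and in the latter the immune markers were nearly flat (1000 CPM in the immune class and 523 CPM in the adipocyte class). Ucp1, the heat-producing protein of brown adipocytes, stood at 1782 and 2072 CPM in taPVAT and BAT, at 63.4 and 89.9 CPM in the libraries labelled mesPVAT and RP fat, at 0.81 CPM on 10x Genomics and at 0.65 CPM in cow. What part this difference in depth and contrast has in the results below was not tested. The median nucleus held 304 genes in the Parse library labelled mesPVAT and 197 in that labelled RP fat. The depth summary in the study orders these depots the other way, so the labels of both Parse libraries may be exchanged. They are used here as labelled, and an exchange would turn the direction of every difference between them. It would also make the comparison of mesPVAT on 10x Genomics and on Parse one between depots.

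The levels are UMIs summed over all nuclei of a library per 1000000 UMIs (CPM), with exact Poisson 95% intervals that cover counting error only. As nuclei were summed, fewer cells of a type and less RNA per cell cannot be told apart. The members together took 3769 CPM in mesPVAT on 10x Genomics, 3656 CPM in mesPVAT on Parse, 3211 CPM in RP fat, 3688 and 3664 CPM in taPVAT and BAT, and 5287 CPM in cow WAT. In the rat libraries, the family total therefore stayed within a narrow band while its members moved. Laminin chains took 2389, 2006, 1609, 2122, 2194 and 2975 CPM in the same order, nidogens 200.4, 182, 130.1, 145, 136 and 377 CPM, and integrins 1180, 1468, 1472, 1421, 1334 and 1936 CPM. RP fat had the lowest laminin and nidogen totals and cow WAT the highest of all 3 families.

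Where 6 levels follow each other below, they stand in this order: mesPVAT on 10x Genomics, then mesPVAT, RP fat, taPVAT and BAT on Parse, then cow WAT. Lama4 encodes the alpha chain of the laminins of adipocytes and small vessels, and stood at 867, 743, 336, 1248, 1402 and 1126 CPM. The counting intervals reach from 298 to 377 CPM in RP fat and from 702 to 786 CPM in mesPVAT on Parse, and from 1218 to 1279 CPM in taPVAT and from 1373 to 1432 CPM in BAT, so none of these 4 overlap. Both brown libraries stood above all white rat libraries. In the Parse sublibraries, which hold other nuclei of the same pool and are no replicates, Lama4 was at 687 and 804 CPM in mesPVAT, 347 and 322 CPM in RP fat, 1222 and 1276 CPM in taPVAT and 1381 and 1424 CPM in BAT. The order of the depots was thus the same in each sublibrary.

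The rat Lama4 gene lies at chr20:43946898-44087972 in GRCr8, on the plus strand. Its upstream sequence is shown because Lama4 took the most member UMIs in each brown library, namely the 150 bases at chr20:43946748-43946897 just before the first annotated base in RefSeq:
Lama4: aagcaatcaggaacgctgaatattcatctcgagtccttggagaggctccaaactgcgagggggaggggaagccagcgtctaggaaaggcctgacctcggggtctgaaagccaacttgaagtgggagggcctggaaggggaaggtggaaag
This window is in lower case throughout because it holds no match to GAGGAA, the motif looked for in all windows shown here.

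Lama2, the alpha chain of muscle, nerve and fibroblast basement membranes, stood at 197, 421, 429, 253, 170.0 and 780 CPM. It went against Lama4, with both white Parse libraries above both brown ones and cow WAT highest. Its log2 ratio of brown to white was -1.04. The median over all genes was -1.42, so most genes lay on the white side as well. Of all UMIs of laminin alpha chains, Lama4 held 77.9% on 10x Genomics, 54.6% in mesPVAT on Parse, 32.5% in RP fat, 79.8% and 85.6% in taPVAT and BAT, and 53.5% in cow WAT. Lama2 held 17.7%, 30.9%, 41.5%, 16.2%, 10.4% and 37.1%. RP fat was the only library in which Lama2 had more alpha chain UMIs than Lama4. Per kilobase of gene span, however, Lama4 stayed above Lama2 in RP fat (2.38 against 0.663 CPM per kb), as Lama2 spans 647.931 kb and Lama4 141.075 kb.

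In CPM, not scaled for length, the other alpha chains were lower. Lama1, an early embryonic chain, stood at 0, 44.7, 62.7, 8.04, 5.38 and 8.20 CPM. Lama3, the alpha chain of epithelial basement membranes, stood at 18.6, 106, 143, 21.8, 16.1 and 115 CPM. Lama5, a chain of mature vessel walls, stood at 30.7, 45.9, 62.7, 33.7, 44.0 and 76.7 CPM. Lama1 and Lama3 were far higher in the white Parse libraries than in the brown ones and on 10x Genomics, whereas Lama5 lay between 30.7 and 76.7 CPM in all libraries. Of all genes, 47.8% were at least 2-fold higher in both white Parse libraries than in both brown ones. In mesPVAT, 32.4% were at least 2-fold higher on Parse than on 10x Genomics. The contrast is thus not particular to these chains.

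**Figure D1:**
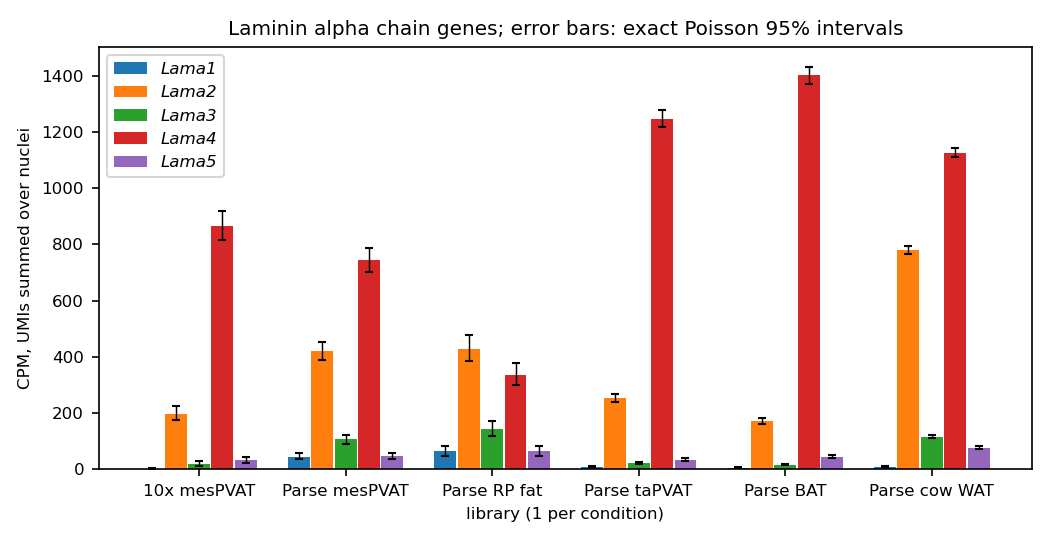
CPM of the laminin alpha chain genes (vertical axis, linear from 0) in the 6 libraries, with exact Poisson 95% intervals as error bars, and bars of different genes are not scaled for gene length. Lama4 stands at 1402 CPM in BAT and 1248 CPM in taPVAT but at 336 CPM in RP fat, where Lama2 stands at 429 CPM.

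Of the beta chains, Lamb1 stood at 97.8, 76.1, 61.5, 90.0, 85.8 and 144 CPM and Lamb2 at 87.3, 196, 110.0, 137, 145 and 111 CPM. Lamb2 is the beta chain of vascular and muscle basement membranes, and it held 42.0%, 62.5%, 45.6%, 55.6%, 58.5% and 42.0% of beta chain UMIs. By UMIs, Lamb1 came first on 10x Genomics (47.1%) and in cow WAT (54.3%). Per kilobase of gene span, Lamb2 stood above Lamb1 on 10x Genomics (7.16 against 1.45 CPM per kb). Lamb3, the beta chain of epithelial laminins, stood at 22.6, 41.0, 69.8, 19.2, 17.4 and 9.86 CPM. In the rat it was highest in RP fat and lowest in the brown depots.

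Lamc1, the gamma chain of nearly all basement membranes, stood at 1061, 256, 254, 290.2, 283 and 551 CPM. The rat Parse libraries thus lay close together, and the 10x Genomics library stood apart from all of them. Lamc3, another gamma chain, stood at 0, 56.1, 40.2, 15.5, 18.4 and 44.2 CPM. Lamc3 was highest in the white Parse libraries and cow WAT.

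Nid1 stood at 124, 119.5, 79.3, 97.6, 92.8 and 209 CPM and Nid2 at 76.8, 62.2, 50.9, 47.3, 43.4 and 168 CPM. Both nidogens were highest in cow WAT, and within the rat Nid1 differed by under 2-fold between any pair of libraries.

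Among the integrins, Itgb1 is the shared beta subunit of the laminin and collagen receptors and stood at 176, 84.5, 60.3, 153, 131 and 138 CPM. Its partner Itga1, a collagen and laminin receptor, stood at 150.3, 186, 116, 281, 362 and 220 CPM. Both were lowest in RP fat, and both brown libraries were above both white Parse libraries. Itgb1 held 44.0% of beta subunit UMIs on 10x Genomics, 21.4% in mesPVAT on Parse, 43.8% and 52.1% in taPVAT and BAT, and 28.1% in cow WAT, while Itgb5 came first in RP fat (19.5%) and in cow WAT (33.2%).

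The laminin-binding alpha subunits were Itga3, Itga6 and Itga7. Itga6, best known from endothelial and epithelial cells, stood at 128, 123, 95.8, 117, 193 and 250 CPM. Itga7, the laminin receptor of muscle, stood at 15.4, 118, 47.3, 132, 147 and 70.5 CPM. Itga3 stood at 14.5, 22.3, 24.8, 11.0, 13.3 and 14.9 CPM. Itga7 was lowest on 10x Genomics and, among the Parse libraries, in RP fat (54.3 and 38.2 CPM in its sublibraries, against 116 and 119 CPM in mesPVAT). Itgb4, which joins Itga6 in hemidesmosomes, stood at 91.3, 61.6, 63.9, 34.1, 23.7 and 38.0 CPM, with the white rat libraries above the brown ones.

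The other collagen-binding alpha subunits are Itga2, Itga10 and Itga11. Itga2 stood at 3.23, 35.6, 66.2, 8.04, 6.65 and 16.6 CPM. Itga10 stood at 0.81, 8.45, 9.46, 2.55, 1.27 and 11.8 CPM. Itga11, a fibroblast receptor, stood at 86.5, 85.1, 112, 27.4, 14.6 and 69.9 CPM. In all 3, RP fat was the highest rat library and BAT the lowest of the Parse rat libraries. The Itga10 level in RP fat rested on 8 UMIs, and its counting interval (4.09 to 18.6 CPM) overlapped that of mesPVAT on Parse. For Itga2 and Itga10 the intervals of BAT and taPVAT overlapped. The excess of white over brown is shared by many genes, as 47.8% of all genes met the 2-fold limit that way.

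Receptors of fibronectin and of other matrix proteins with the RGD motif are Itga5, Itga8 and Itgav with Itgb1, Itgb3, Itgb5, Itgb6 or Itgb8. Itga5 stood at 29.1, 36.2, 23.7, 38.2, 36.2 and 102 CPM. Itga8 stood at 54.1, 87.5, 103, 45.1, 41.3 and 28.1 CPM. Itgav stood at 126, 53.1, 49.7, 104, 105 and 90.2 CPM. These moved in different ways, as Itga8 was higher in both white Parse libraries and Itgav in both brown ones. Itgb3 stood at 36.4, 41.6, 69.8, 22.9, 12.8 and 49.0 CPM and Itgb5 at 71.9, 74.8, 84.0, 77.6, 57.9 and 163 CPM. Itgb6, known from epithelia, stood at 0.81, 27.8, 29.6, 2.35, 3.32 and 7.31 CPM. Itgb8 stood at 12.9, 65.8, 69.8, 19.2, 12.2 and 20.7 CPM. Itgb3, Itgb6 and Itgb8 were lower in BAT and taPVAT than in RP fat, while for Itgb5 the counting intervals of taPVAT (70.2 to 85.7 CPM) and RP fat (65.6 to 105.9 CPM) overlapped. Itga2b, the platelet subunit, stood at 4.04, 13.9, 17.7, 5.49, 5.06 and 22.2 CPM. Itga9, which binds tenascin and is known from lymphatic vessels, stood at 127, 132, 198, 64.1, 37.4 and 204 CPM, with both brown libraries lowest.

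The leukocyte integrins are Itgb2 with Itgal, Itgam, Itgax or Itgad, and Itga4 or Itgae with Itgb7. Itgb2 stood at 9.70, 30.2, 46.1, 38.4, 9.02 and 65.5 CPM. Itgal stood at 0.81, 47.7, 40.2, 83.7, 40.0 and 48.0 CPM. Itgam stood at 9.70, 30.2, 29.6, 26.1, 9.34 and 258 CPM. Cow WAT thus stood far above every rat library in Itgam, the macrophage and neutrophil subunit. Itga4, which binds VCAM1, stood at 17.0, 47.1, 46.1, 66.7, 22.5 and 28.4 CPM. Itgad stood at 0, 6.04, 15.4, 3.73, 2.69 and 11.0 CPM and Itgb7 at 0.81, 9.05, 8.28, 1.37, 1.27 and 9.81 CPM. Itgae stood at 12.9, 31.4, 34.3, 49.0 and 40.7 CPM in the rat libraries. BAT was below taPVAT beyond counting error in Itgb2, Itgal, Itgam and Itga4. It was slightly below in Itgae, with a ratio of taPVAT to BAT of 1.21 (1.01 to 1.44). For Itgad (19 and 17 UMIs) and Itgb7 (7 and 8 UMIs) the counting interval of that ratio included 1. The median log2 ratio of taPVAT to BAT over all genes was 0.11.

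**Figure D2:**
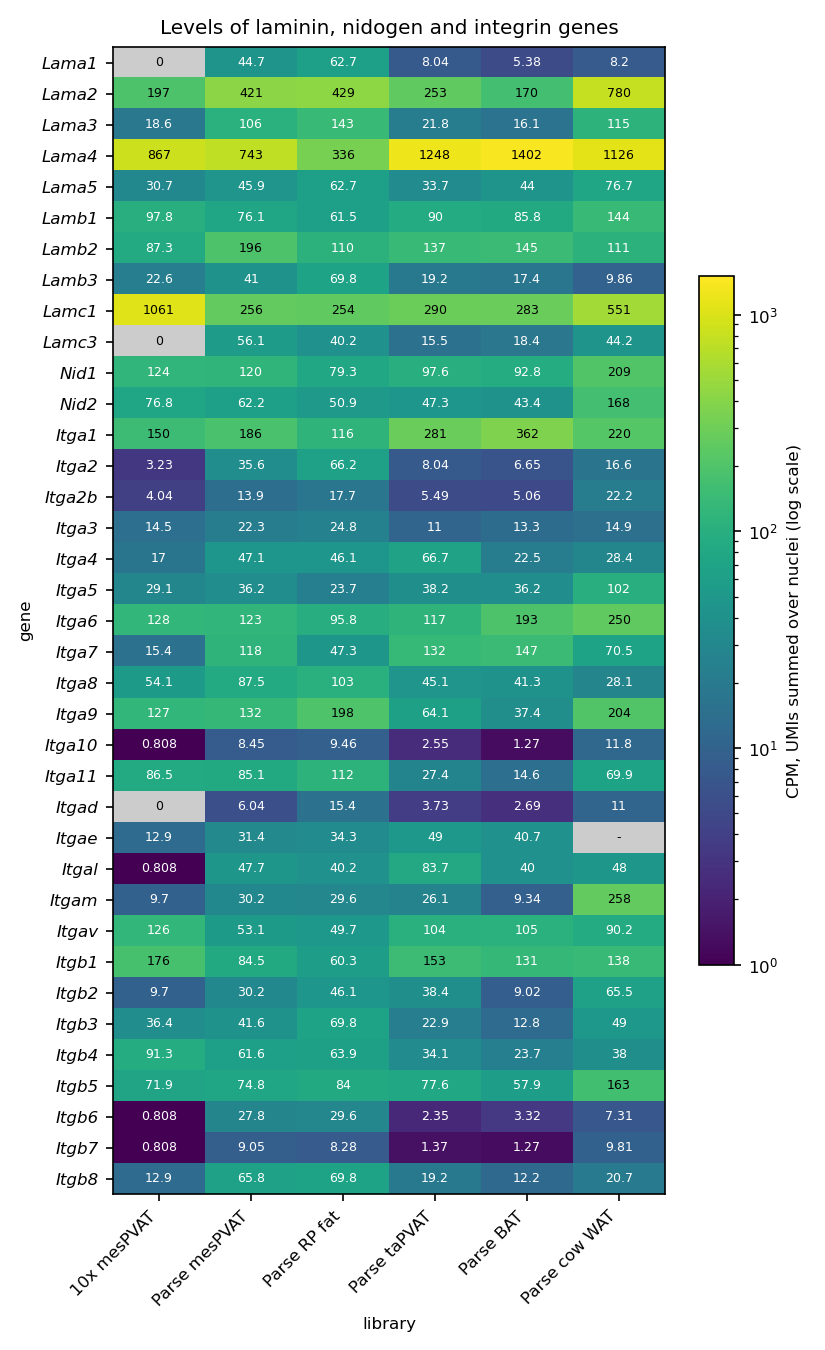
CPM of 37 members with at least 100 UMIs in some library (rows) in the 6 libraries (columns), written in each cell and coloured on a log scale, and grey cells have 0 UMIs or no such gene. Reading along a row, Lama4 is lowest in RP fat (336 CPM), Lamc1 stands out on 10x Genomics (1061 CPM) and Itgam in cow WAT (258 CPM), while order down a column is not scaled for length.

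Because nuclear libraries also count unspliced transcripts, genes were also ranked on CPM per kilobase of their RefSeq span, which all 39 rat members have. The shares of chain and subunit UMIs given above are not scaled for length. Lamb2, a compact gene of 12.192 kb, came first in every Parse rat library, with 16.0 CPM per kb in mesPVAT, 9.02 in RP fat, 11.2 in taPVAT and 11.9 in BAT. Lama4 came second at 5.27, 2.38, 8.85 and 9.94 CPM per kb. Next came Itga7 in mesPVAT (4.07 CPM per kb), taPVAT (4.58 CPM per kb) and BAT (5.09 CPM per kb), and Lamc1 in RP fat (2.00 CPM per kb). On 10x Genomics, Lamc1 led with 8.35 CPM per kb before Lamb2 with 7.16 and Lama4 with 6.15. The median member had 0.409 CPM per kb on 10x Genomics, 0.783 in mesPVAT, 0.725 in RP fat, 0.517 in taPVAT and 0.299 in BAT. Across the genes with a UMI, Spearman's rho of UMIs with span was 0.47 on 10x Genomics, 0.59 in mesPVAT, 0.71 in RP fat, 0.34 in taPVAT and 0.36 in BAT. These were 35 genes on 10x Genomics and 39 in each rat Parse library. The rho is a description over genes that share a library. RP fat had the closest tie of UMIs to gene length and BAT and taPVAT the loosest.

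The taPVAT and BAT libraries ask how a brown perivascular depot differs from a brown depot away from a large vessel. A member was called when its CPM differed by at least 2-fold and both libraries together held at least 20 UMIs. In taPVAT 5 of 38 members were higher (5.97% of all 18696 genes were), and in BAT 0 of 38 were higher (1.1% of all genes). Of the 5, 4 are leukocyte integrins: Itgb2, Itga4, Itgam and Itgal. Itgb2 was at 38.4 CPM in taPVAT and 9.02 CPM in BAT, a ratio of 4.26 (95% counting interval 3.16 to 5.83). Itga4 had a ratio of 2.97 (2.43 to 3.63) and Itgam of 2.79 (2.04 to 3.86). Itgal, at 83.7 against 40.0 CPM, had a ratio of 2.09 (1.79 to 2.45). The fifth, Itga10, rested on 13 and 8 UMIs, and its interval from 0.77 to 5.60 includes 1. Both sublibraries held the difference for the leukocyte members, with Itgb2 at 40.9 and 35.8 CPM in taPVAT against 10.1 and 7.92 CPM in BAT.

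Immune nuclei were also more frequent in taPVAT, as the Ptprc class held 5.54% of its nuclei and 1.89% of those of BAT, and the summed immune marker list stood at 465 and 201 CPM. With all nuclei that held a Ptprc UMI left out, a choice made after seeing the data, 4 members were called (5.07% of all genes), with log2 ratios of 2.09 for Itgb2, 1.24 for Itga4, 1.31 for Itgam and 1.16 for Itga10, against 0.41 for Itgal. Immune nuclei in which no Ptprc UMI was caught remain in that count, so the part of the share of immune nuclei in these ratios was not tested. Scaling by median ratios left Itga4, Itgam and Itgb2 called.

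No laminin or nidogen gene met the 2-fold limit between the brown depots. Lamc1 had a ratio of taPVAT to BAT of 1.03 (0.956 to 1.10), Lamb2 of 0.941 (0.851 to 1.04). Lama4, with 0.890 (0.862 to 0.919), and Lama5, with 0.766 (0.630 to 0.930), were lower in taPVAT beyond counting error, and Lama3, with 1.35 (1.02 to 1.78), higher. Lama2, with 1.49 (1.37 to 1.61), Itga9, with 1.72 (1.45 to 2.04), and Itga11, with 1.89 (1.44 to 2.48), were higher in taPVAT but under the 2-fold limit. Itga6 was the member with the largest excess in BAT, by 1.65-fold (1.496 to 1.82). The median log2 ratio was 0.18 over the members and 0.11 over all genes.

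The libraries labelled mesPVAT and RP fat set a white perivascular depot against a white depot away from large vessels. Of 39 members, 2 were higher in mesPVAT (5.88% of all 18507 genes) and 1 in RP fat (9.79% of all genes). Lama4, at 743 against 336 CPM, had a ratio of 2.21 (1.94 to 2.53). Itga7, at 118 against 47.3 CPM, had a ratio of 2.49 (1.76 to 3.59). The member higher in RP fat, Itgad, rested on 10 and 13 UMIs, with a ratio of RP fat to mesPVAT of 2.55 (1.03 to 6.49). Below the limit, Lamb2 had a ratio of 1.78 (1.41 to 2.26) and Itga1 of 1.60 (1.27 to 2.03), whereas Lama2 (0.980, 0.862 to 1.12) and Lamc1 (1.01) were nearly level. The median log2 ratio was -0.05 over the members and -0.25 over all genes.

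Adipocyte markers moved the same way as Lama4 and Itga7, with a summed list of 1942 CPM in mesPVAT and 763 CPM in RP fat. Within the Plin1 class that list itself stood at 4383 CPM in mesPVAT and 1507 CPM in RP fat. Lama4 stood there at 1507 CPM (1383 to 1638, 550 UMIs) in mesPVAT and 660 CPM (495 to 864, 53 UMIs) in RP fat. Itga7 stood there at 266 CPM (215 to 324, 97 UMIs) in mesPVAT and 125 CPM (59.7 to 229, 10 UMIs) in RP fat, with intervals that overlap. The part of adipocyte content in these differences was not tested. In sublibrary 1 alone Lama4 fell under the 2-fold limit (687 against 347 CPM).

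No member met the limit in the same direction in both pairs of perivascular and other depots, where 0.143% of 16066 genes were higher and 0.162% lower in both perivascular libraries. Lama4 itself was higher in mesPVAT than in RP fat but 0.890 times as high in taPVAT as in BAT.

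**Figure D3:**
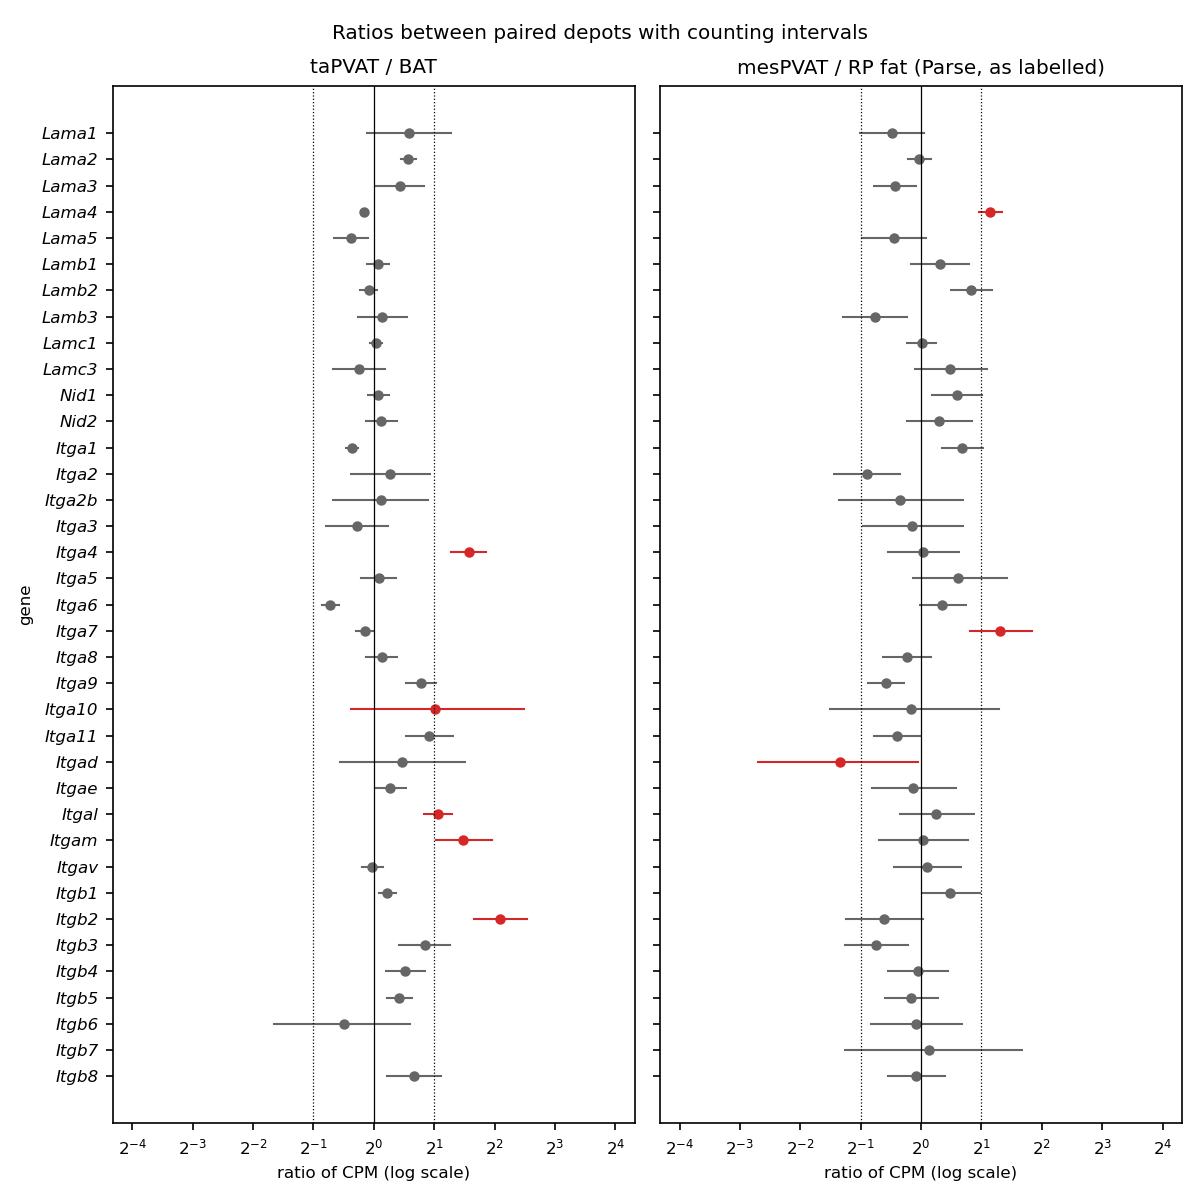
Ratio of CPM on a log axis for taPVAT over BAT and for mesPVAT over RP fat (Parse), 1 point per member shown with its 95% counting interval, where red points were called and dotted lines mark 2-fold. Itgb2 (4.26), Itga4 (2.97), Itgam (2.79) and Itgal (2.09) lie to the right for taPVAT, and Itga7 (2.49) and Lama4 (2.21) for mesPVAT.

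Brown and white rat depots were set against each other by asking that every library of one kind was at least 2-fold above every library of the other. Of 39 members, 0 were higher in the brown depots (5.08% of all genes) and 13 in the white ones (47.8% of all 24063 genes). The share of members called white, 33.3%, lies below that background, so nothing is read from it. Among the 13 were the laminin chains Lama1, Lama3, Lamb3 and Lamc3 and the integrins Itga2, Itga2b, Itga9, Itga10, Itga11, Itgb6, Itgb7 and Itgb8, with geometric means from 2.82-fold (Lamc3) to 10.2-fold (Itgb6) higher in white depots. Lama4 had geometric means 2.65-fold and Itga1 2.17-fold higher in brown depots, without all libraries being 2-fold apart. With RP fat alone as the white library, an addition made after seeing the data, 5 of 39 members were higher in brown depots (11.8% of all genes), namely Itga1, Itga7, Itgav, Itgb1 and Lama4, and with mesPVAT alone 0 of 39 were (7.32% of all genes). The median log2 ratio of brown to white was -1.0 over the members and -1.42 over all genes.

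The libraries labelled mesPVAT on the 2 platforms differed in kit, nuclei isolation and annotation at once, and these cannot be told apart. If the Parse labels mesPVAT and RP fat are exchanged, the depot differed as well. Whether they came from the same animals is not given in the sources used here. Of 33 members, 3 were higher on 10x Genomics (22.7% of all 11911 genes) and 14 on Parse (32.4% of all genes). Lamc1 was 4.15-fold (3.71 to 4.64) higher on 10x Genomics, Itgav 2.37-fold (1.82 to 3.12) and Itgb1 2.08-fold (1.68 to 2.60). With the library at 0 set at 3 UMIs, Lama1 (0 against 74 UMIs) was 18.4-fold and Lamc3 (0 against 93 UMIs) 23.2-fold higher on Parse. The lower ends of their counting intervals were 14.6 and 18.5. Itga7 was 7.67-fold (4.78 to 13.0), Lamb2 2.24-fold (1.80 to 2.81) and Lama2 2.13-fold (1.84 to 2.48) higher on Parse. Itga6, Itga9 and Lama4 were nearly level between the platforms, at ratios of 10x Genomics to Parse of 1.05, 0.964 and 1.17 (1.07 to 1.27). The summed marker lists differed as well. On 10x Genomics and Parse, mesothelial markers, in none of the classes, stood at 951 and 114 CPM, progenitor markers at 3000 and 1463 CPM and adipocyte markers at 5723 and 1942 CPM. Mural markers, at 123 and 974 CPM, and endothelial markers, at 549 and 963 CPM, went the other way. The part of cell content in these ratios was not tested.

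To place the members among cell types, UMIs were summed over each class of nuclei. A member was led by a class when it had at least 10 UMIs there and at least 2-fold the CPM of each other class. Of the members with at least 10 UMIs over the classes, 12 of 36 were led by a class in taPVAT (9.62% of all genes), 7 of 37 in BAT (4.19% of all genes), 17 of 37 in cow WAT (16.8% of all genes), 3 of 17 on 10x Genomics (2.75% of all genes), 1 of 33 in mesPVAT on Parse (1.6% of all genes) and 0 of 26 in RP fat (1.03% of all genes). The class sizes set how much can be seen, with 18 progenitor nuclei in BAT, 1118 and 1386 adipocyte nuclei in taPVAT and BAT, and 47 progenitor and 36 mural nuclei on 10x Genomics. In mesPVAT on Parse the single lead was that of Itga8 by immune nuclei (0.179% of all genes), on 13 UMIs. The adipocyte class led 0 members in taPVAT (2.67% of all genes), 0 in BAT (1.11% of all genes) and 3 in cow WAT (4.17% of all genes), namely LAMA4, LAMC1 and NID2. The classes are nuclei of the same library and no replicates.

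Lama2 was highest in the Pdgfra class, that of stromal progenitors, in every library but RP fat. In taPVAT it stood at 98.2 CPM in the adipocyte class, 1515 CPM in the progenitor class, 195 CPM in the endothelial class, 94.5 CPM in the immune class and 872 CPM in the mural class. In BAT the progenitor class stood at 3910 CPM (83 UMIs in 18 nuclei), with 69.5 CPM in adipocytes and 198 CPM in the mural class. In cow WAT it stood at 2048 CPM in the progenitor class and at most 309 CPM in any other. On 10x Genomics Lama2 was at 1191 CPM in the progenitor class and 88.8 CPM in the adipocyte class, while in RP fat the 5 classes lay between 281 and 419 CPM. In all, the progenitor class led 1 member in taPVAT, Itga11 (1.28% of all genes, 128 CPM on 12 UMIs), 1 in BAT, Lama2 (0.586% of all genes), 3 in cow WAT, ITGA11, LAMA2 and NID1 (1.78% of all genes), and 2 on 10x Genomics, Lama2 and Lamc1 (1.06% of all genes). On 10x Genomics both leads were lost with a gate of at least 2 UMIs (log2 ratios of -4.95 and -3.45 to the highest other class). A class at 0 to 2 UMIs was set at 3 UMIs there, so in very small classes these ratios can rest on that floor. They are not read as a higher level in another class. With the study's filters on nuclei Lama2 lost its lead (0.046) while Lamc1 stood at 1.76.

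Lama4 was not confined to any class. In taPVAT it stood at 1449 CPM (1400.4 to 1499) in the adipocyte class, 1569 CPM in the progenitor class, 677 CPM in the endothelial class, 173 CPM in the immune class and 1012 CPM in the mural class. In BAT these were 1630, 1225, 627, 421 and 1247 CPM. The adipocyte and progenitor classes did not differ beyond their counting intervals in taPVAT, and the immune class was lowest in both depots. In cow WAT the adipocyte class, at 2859 CPM, was 2-fold or more above all others, the next being the progenitor class at 991 CPM. That adipocyte class held 2607 CPM of adipocyte markers, against at most 441 CPM in any other class. Its progenitor markers stood at 2702 CPM, against 1232 to 1904 CPM in the endothelial, immune and mural classes and 10626 CPM in the progenitor class. The sums of both lists are not compared, as only 5 of 7 adipocyte markers but all 8 progenitor markers were in the cow annotation. Nuclei with at least 2 UMIs of skeletal muscle markers held 21.6% of the UMIs of this adipocyte class, but these were 7 of 111 nuclei. The summed muscle list stood at 55.6 CPM in this class and 57.6 CPM in the whole library, so no muscle content is read from that share. The progenitor markers found in this class also limit the adipocyte leads of LAMC1 and NID2.

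Lamc1 went with Lama4 in cow WAT, where the adipocyte class stood at 1227 CPM against 509 CPM in the mural class. In the rat the order differed. Lamc1 in taPVAT was at 243 CPM in adipocytes, 566 CPM in progenitors and 509 CPM in endothelial nuclei, and in BAT at 211, 612 and 632 CPM. On 10x Genomics, where Lamc1 stood apart, it was led by the progenitor class (2931 CPM), with 971 CPM in adipocytes and 388 to 681 CPM in the other classes.

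Nid1 and Nid2 parted in cow WAT. Nid1 was led there by the progenitor class (438 CPM, against 174 CPM in adipocytes) and Nid2 by the adipocyte class (414 CPM, against 89.5 CPM in progenitors). In taPVAT both were low in adipocytes, Nid1 at 56.3 CPM against 256 CPM in progenitors and Nid2 at 36.7 CPM against 213 CPM. In BAT, Nid1 was at 43.4 CPM in adipocytes and 242 CPM in endothelial nuclei, and Nid2 at 24.0 CPM in adipocytes. The adipocyte level of Nid2 relative to other classes thus differed between the cow and the rat libraries, which differ in species, sex, lactation and depot together.

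Endothelial nuclei led Itga6 and Lama5 in taPVAT (1.76% of all genes), Itga6 in BAT (1% of all genes), ITGA2, ITGA9, ITGB4 and LAMA5 in cow WAT (3.09% of all genes) and Itga9 on 10x Genomics (0.594% of all genes). Itga6 stood there at 509 CPM in taPVAT and 1139 CPM in BAT, while adipocytes stood at 39.7 and 33.2 CPM. In cow WAT the endothelial class was again highest for ITGA6 (518 CPM), but adipocytes followed at 329 CPM. Lama5 stood at 142 CPM in the endothelial class of taPVAT and 231 CPM in that of cow WAT. In BAT it was 102 CPM in the endothelial class and 297 CPM in the mural class. The collagen receptor Itga1 was high in the vessel classes of all 3 libraries without a lead, at 695 CPM in endothelial and 561 CPM in mural nuclei of taPVAT, 925 and 661 CPM in BAT, and 430 and 770 CPM in cow WAT.

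Itga9 stood at 419 CPM in the endothelial class of cow WAT and at 1024 CPM in that of the 10x Genomics library. On 10x Genomics, 10 of 88 endothelial nuclei carried at least 2 UMIs of the lymphatic markers Prox1, Flt4, Mmrn1 and Reln, and these held 25 of the Itga9 UMIs, against 4 in the other 78 nuclei (2589 and 214 CPM). In taPVAT 9 of 230 endothelial nuclei carried them, with Itga9 at 613 CPM there and 134 CPM in the rest. Itga9 was thus higher in the nuclei with lymphatic markers in both libraries, on 6 UMIs in taPVAT, and without them it had no endothelial lead on 10x Genomics, nor with the study's filters on nuclei (log2 ratio 0.61) or the gate of at least 2 UMIs (-4.98). The last ratio can rest on the 3 UMIs set for a class at 0 to 2 UMIs. The other rat libraries held 0 Itga9 UMIs in such nuclei, which numbered 3 in mesPVAT on Parse, 5 in RP fat and 8 in BAT. Itga9 stood at 145, 147 and 54.9 CPM in the rest. Such nuclei held 1941, 5824 and 11889 UMIs of all genes, too few for 0 UMIs to show a level below that of the rest. The higher Itga9 level found in such nuclei on 10x Genomics and in taPVAT was not seen in these libraries. In cow WAT, where LYVE1 is also in the list, the levels were 485 and 414 CPM. ITGA2 and ITGB4 were led by endothelial nuclei in cow WAT, at 41.8 and 109.5 CPM.

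Mural nuclei, those of pericytes and smooth muscle, led Itga7, Itga8 and Lamc3 in taPVAT (1.04% of all genes), Itga7 and Lama5 in BAT (0.755% of all genes) and ITGA7 and ITGA8 in cow WAT (2.37% of all genes). Itga7 stood at 358 CPM in the mural class and 131 CPM in the adipocyte class of taPVAT, 578 and 154 CPM in BAT and 243 and 96.6 CPM in cow WAT, with 94.2 CPM or less in the other classes. Adipocytes were thus the class next in Itga7 in each, and in mesPVAT on Parse they were the highest, at 266 CPM. Itga8 stood at 265 CPM in mural nuclei of taPVAT, 223 CPM in those of BAT and 129 CPM in those of cow WAT. Lamc3 stood at 171 CPM in mural nuclei of taPVAT, on 11 UMIs.

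A list of genes known from skeletal muscle, a tissue rich in Itga7, moved with the mural class in the rat brown depots. There Ttn, Neb, Myh4, Myh2, Ckm, Ryr1 and Actn2 summed to 3769 CPM in mural nuclei of taPVAT and 2478 CPM in those of BAT. In cow WAT, where the list held 6 of these 7 genes and lacked TTN, the sum was 48.7 CPM. The cow values of this list, here and below, thus come from a shorter list and are not compared with those of the rat. The rat sums were carried by Ttn, Neb and Actn2, with 785, 504 and 402 UMIs in the whole taPVAT library and 242, 930 and 484 UMIs in that of BAT. The fibre genes Myh4, Myh2 and Ckm were at or near 0, with 0, 8 and 5 UMIs in taPVAT and 5, 3 and 3 UMIs in BAT. At least 2 UMIs of the list were found in 26 of 64 mural nuclei in taPVAT, 41 of 67 in BAT and 6 of 231 in cow WAT. Itga7 was at 578 CPM in such nuclei and 225 CPM in the other mural nuclei of taPVAT, and at 730 and 351 CPM in BAT. Itga8 went the other way in taPVAT, with 1 UMI in nuclei with muscle markers and 16 in the rest. With nuclei carrying lymphatic or muscle markers left out of all classes, after seeing the data, 6 of the members led by a class in taPVAT kept their lead, namely Itga4, Itga6, Itga8, Itgal, Itgam and Itgb2. The log2 ratio to the highest other class fell below the limit for Itga7 (0.88), Itga11 (0.85), Itgav (0.87), Itgax (0.69) and Lama5 (0.93), whereas Lamc3 kept a ratio of 1.89 and lost its lead through the minimum of 10 UMIs.

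The immune class led 6 members in taPVAT (2.87% of all genes), which were Itga4, Itgal, Itgam, Itgav, Itgax and Itgb2, 3 in BAT (0.735% of all genes), which were Itga4, Itgal and Itgb2, and 5 in cow WAT (5.42% of all genes), which were ITGA4, ITGAD, ITGAL, ITGAM and ITGB2. Itgal stood at 1347 CPM in immune nuclei of taPVAT, 779 CPM in those of BAT and 209 CPM in those of cow WAT, and at 74.7 CPM or less in any other class. Itga4 stood at 1229, 674 and 80.5 CPM. Itgb2, the subunit that Itgal and Itgam need, stood at 488, 358 and 260 CPM. Itgam went the other way, with 971 CPM in immune nuclei of cow WAT and 362 CPM in those of taPVAT. Immune nuclei of cow WAT were thus above those of taPVAT in Itgam and below them in Itgal and Itga4, between libraries that differ in species, sex, lactation and depot together.

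In adipocyte nuclei Itgb2, Itga4 and Itgal were low. Free RNA and doublets can carry UMIs from one class to another. In taPVAT the immune marker list stood at 142 CPM in adipocytes against 5009 CPM in immune nuclei, so these levels are not read as expression. Itgb2 stood at 6.99 CPM in taPVAT and 1.85 CPM in BAT, Itga4 at 13.5 and 6.15 CPM and Itgal at 26.6 and 28.3 CPM. Itgae stood at 62.4 CPM in adipocytes and 47.3 CPM in immune nuclei of taPVAT, and at 49.8 CPM in adipocytes and 0 UMIs in immune nuclei of BAT. The immune classes held only 126982 UMIs of all genes in taPVAT and 47488 in BAT. Their Itgae levels thus rest on few UMIs, and no contrast with the other subunits is read from them. Itgav, the vitronectin receptor subunit, was at 228 CPM in immune nuclei of taPVAT against 109 CPM or less elsewhere, but at 126 and 118 CPM in immune nuclei and adipocytes of BAT. In the library labelled RP fat, Itgal lay between 37.4 and 90.9 CPM in all 5 classes, and their counting intervals all overlapped.

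Of the 6 members led by immune nuclei in taPVAT, upstream windows were obtained for Itgam and Itgav and are shown. Each holds GAGGAA or its form on the other strand, TTCCTC, in capitals here. This is a form of the site of the myeloid factor PU.1. The motif stands in 14.5% of 33469 promoter windows of 150 bases, its match is a description of letters only, and both windows were read on the plus strand of GRCr8 just before the first RefSeq base of the gene, at chr1:192089346-192089495 and chr3:89245232-89245381:
Itgam: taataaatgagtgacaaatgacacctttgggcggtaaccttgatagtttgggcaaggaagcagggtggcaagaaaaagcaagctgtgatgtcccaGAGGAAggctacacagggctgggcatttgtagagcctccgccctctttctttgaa
Itgav: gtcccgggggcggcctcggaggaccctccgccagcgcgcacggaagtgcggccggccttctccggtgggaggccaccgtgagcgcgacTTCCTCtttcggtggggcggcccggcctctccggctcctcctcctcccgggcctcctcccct
The match begins 55 bases before the start of Itgam and 62 bases before that of Itgav. For the other 4 no match is reported here. The 14.5% counts windows at a fixed position in the promoter set, which can differ from the bases just before the first RefSeq base. For Itga4 and Itgax the window overlapped the gene itself, and for Itgal and Itgb2 no window was obtained.

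**Figure D4:**
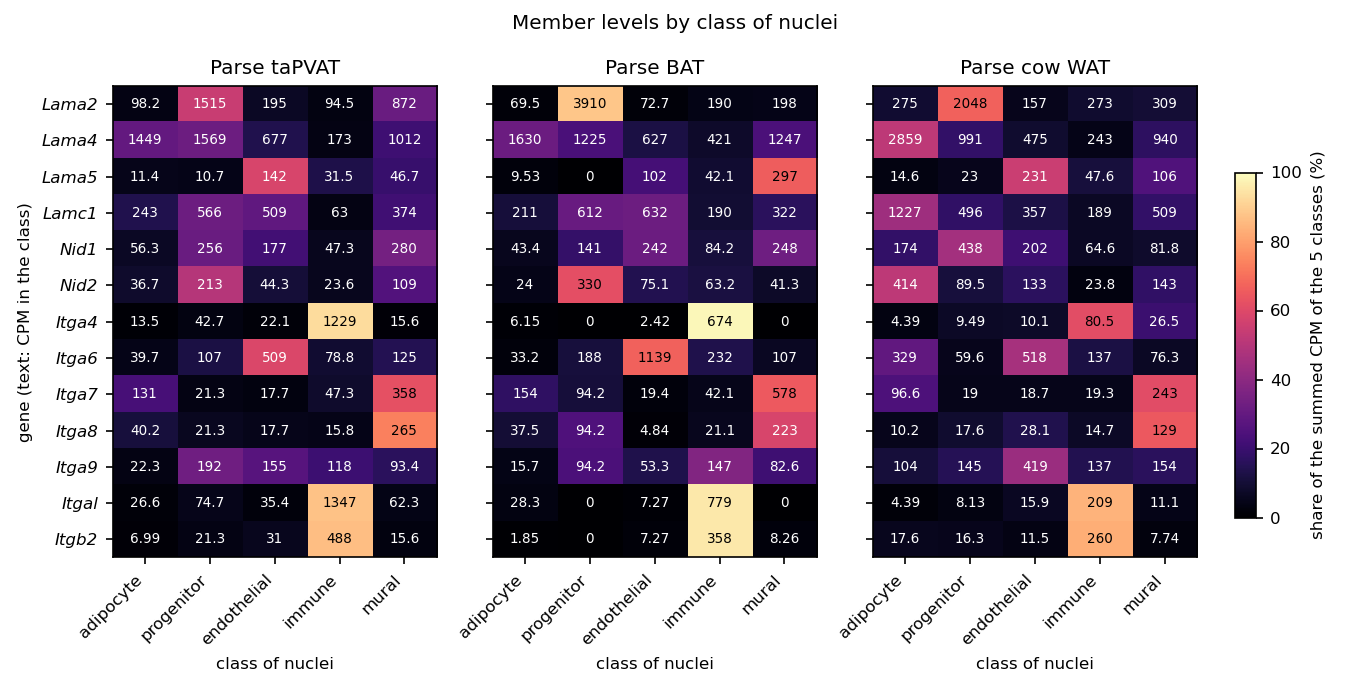
CPM of 13 members (rows) in the 5 classes of nuclei (columns) of taPVAT, BAT and cow WAT, written in each cell, with the colour giving the share of the summed CPM of the classes in percent. Lama2 is brightest in the progenitor class, Itga4, Itgal and Itgb2 in the immune class, and Itga7 and Itga8 in the mural class. Lama4 is spread over all classes in taPVAT and BAT and brightest in adipocytes of cow WAT (2859 CPM).

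The partners of the family were counted with the same limits. Of 12 basement membrane partners, 0 were called between taPVAT and BAT, and 2 were higher in mesPVAT than in RP fat, the collagen IV chain Col4a2 (765 against 361 CPM) and the collagen Col18a1 (254 against 123 CPM), where 5.88% of all genes were. By the rule for brown and white, 3 of 12 were higher in white depots, Col4a4, Col4a6 and Ntn4, a share below the 47.8% of all genes. In cow WAT, 1 of 12 was led by adipocytes, COL4A2 (4.17% of all genes). Mural nuclei led 4 there, COL4A4, COL4A5, COL4A6 and AGRN (2.37% of all genes). They also led 2 in taPVAT, Col4a1 and Ntn4 (1.04% of all genes), and 3 in BAT, Col4a5, Col18a1 and Ntn4 (0.755% of all genes). Progenitors led 2 in BAT, Col4a3 and Col4a4 (0.586% of all genes). Of 7 receptors of laminin other than integrins and their partners, 0 were called between taPVAT and BAT, Utrn, a dystrophin relative, was higher in mesPVAT than in RP fat (2422 against 894 CPM), and Dag1, the dystroglycan gene, was higher in both brown depots (54.9 and 56.2 CPM against 19.3 and 13.0 CPM), each 1 of 7 against 5.88% and 5.08% of all genes. Dmd, the dystrophin gene, was led by mural nuclei in taPVAT (779 CPM), BAT (3188 CPM) and cow WAT (895 CPM), where the muscle marker values given above apply as well.

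Of 17 adaptors that tie integrins to the cytoskeleton, 2 were higher in taPVAT than in BAT (5.97% of all genes), Fermt3, the kindlin of blood cells (24.1 against 9.18 CPM), and Parvg, the leukocyte parvin (5.88 against 2.69 CPM). Fermt3 was led by immune nuclei in taPVAT (260 CPM) and cow WAT (118 CPM). Fermt2, the kindlin of adherent cells, was the adaptor higher in mesPVAT than in RP fat (681 against 188 CPM), which is 1 of 17 against 5.88% of all genes. Fermt1 and Parvg were higher in white than in brown depots, 2 of 17 against 47.8% of all genes. Of 10 other integrin ligands measured in the brown depots, 4 were higher in taPVAT than in BAT (5.97% of all genes), fibronectin Fn1 (174 against 46.1 CPM), Vcam1 (22.2 against 7.91 CPM), Icam1 (13.1 against 5.54 CPM) and tenascin Tnc (11.8 against 4.43 CPM). Vcam1 is the ligand of Itga4, and Icam1 that of Itgal and Itgam with Itgb2. Ccn1, 1 of 8 ligands tested between the white depots, was higher in RP fat (9.79% of all genes), at 15.1 CPM in mesPVAT and 53.2 CPM in RP fat. Tnc and Emilin1 were higher in white than in brown depots, 2 of 11 against 47.8% of all genes. Fn1 was led by the progenitor class in taPVAT (1056 CPM) and cow WAT (857 CPM).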

How the data were processed

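Nuclei of 6 libraries, 1 per condition, were grouped by their labels. The deposited values are UMI counts per gene and nucleus, not normalized. The authors aligned and counted Parse reads with split-pipe, and per the file headers the 10x Genomics matrix came from Cell Ranger 7.1.0, whose build is not given consistently in the sources used here. All deposited nuclei were used, with Python 3.11.15, numpy 2.4.6, scipy 1.17.1, pandas 2.3.3 and matplotlib 3.10.9. Counts were summed per library or class and scaled to CPM, and ratios have exact conditional 95% intervals. A library or class with 0 to 2 UMIs was set at 3 UMIs for a ratio. Calls needed 2-fold and 20 UMIs, class leads 10 UMIs. The steps were tested on simulated data. Every member may be named, those with 100 UMIs in some library with all levels except 1 that is not reported here, and of the partner lists only genes that were called. Members and lists were chosen with earlier results of these data known. Alternatives changed the scaling, the filters on nuclei, the UMI minimum, the sublibraries, the gates and the lead rule. Gene spans and upstream windows are from RefSeq (GRCr8). The study's doublet calls were not used here.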

Additional observations from a re-analysis of the deposited data

How the results depend on the processing

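No paired analysis was possible because each condition had 1 library and no test was made. Scaling by median ratios shifted all log2 ratios by 0.28 for mesPVAT against RP fat, 0.51 for brown against white and -0.33 for 10x Genomics against Parse, and leaving the 20 highest genes out of the totals shifted brown against white by 0.15. Members higher in taPVAT than in BAT numbered 3 with median ratios and 3 with nuclei of at least 500 UMIs. Members higher in mesPVAT than in RP fat numbered 1 in sublibrary 1 (Itga7) and 4 in sublibrary 2 (Itga1, Itga5, Itga7 and Lama4). Those higher in RP fat numbered 3 with nuclei of at least 500 UMIs, 2 in sublibrary 2 and 0 with a minimum of 50 UMIs, which leaves Itgad untested. Members higher in brown depots numbered 1 without the 20 highest genes, 4 with median ratios, 1 with the study's filters on nuclei and 5 with RP fat alone as the white library, and members higher in white depots numbered 8 in sublibrary 2. With median ratios 1 member, Lamc1, was higher on 10x Genomics than on Parse.

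With a gate of at least 2 UMIs, members led by a class fell to 0 on 10x Genomics, 0 in mesPVAT on Parse, 6 in taPVAT and 4 in BAT, as classes shrank. Against the median of the other classes they rose to 8 on 10x Genomics, 3 in mesPVAT on Parse, 1 in RP fat, 21 and 16 in taPVAT and BAT, and 27 in cow WAT. The study's filters left 1 on 10x Genomics, and the gate gene with the most UMIs and a minimum of 20 UMIs each left 0 in mesPVAT on Parse. Leaving out nuclei with lymphatic or skeletal muscle markers, chosen after seeing the data like the nuclei without Ptprc, the single white libraries and matching by Ensembl identifier, left 6 in taPVAT.

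The log2 ratio of Itga2b between 10x Genomics and Parse turned to 0.064 with nuclei of at least 500 UMIs. With the gate of at least 2 UMIs, the log2 ratio of the leading class to the next turned to -4.98 (Itga9), -4.95 (Lama2) and -3.45 (Lamc1) on 10x Genomics, -1.26 (Itga8) in mesPVAT on Parse, -0.53 (Itga11) and -0.059 (Lama5) in taPVAT and -0.22 (Lama5) in BAT. Classes at 0 to 2 UMIs were set at 3 UMIs in these ratios, which weighs most in small classes. The negative values are thus not read as a higher level in another class. On 10x Genomics, Itga9 turned to -0.93 without the nuclei with lymphatic or muscle markers, which held most of its UMIs there. That ratio rests on few Itga9 UMIs and on small classes, as the mural class held 7342 UMIs in all. It is not read as a higher level in another class. For the other changes the cause was not tested. Of the single folds between libraries, 238 settings gave the same call and size and 44 moved, and of the class ratios 203 and 29.

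With 1 library per condition, differences between animals, tissue pieces and preparations cannot be told from differences between depots. Depth limits the class levels most where classes were small, with 36 mural nuclei on 10x Genomics, 42 in RP fat and 18 progenitor nuclei in BAT, and 17 and 26 members testable by class on 10x Genomics and in RP fat.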
